A study of Mus musculus with 6 samples.

Results

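The tumour suppressor p53 and the genes that set its level or activity were followed through depletion of SetD8 in maturing erythroid cells. The group holds 10 genes: Trp53 itself, its negative regulators Mdm2, Mdm4, Ppm1d, Rchy1 and Rfwd2 (current symbol Cop1), the deubiquitinase gene Usp7, the upstream gene Cdkn2a, and the family members Trp63 and Trp73. Every probe that was not a control and whose gene name on the array was a current or earlier symbol of these genes was taken, which gave 20 probes of 55681, or 10 genes of the 22221 named in a reference gene table. No further probe was tied to a member by accession or synonym (0 probes). Probes were matched by name alone, while the 10 genes were chosen with earlier results of these data known.

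The SetD8 siRNA group (3 arrays) and the control siRNA group (3 arrays) were both made from G1E-ER-GATA-1. This mouse line of erythroid progenitors has no Gata1 of its own, and it expresses a fusion of GATA-1 with the hormone-binding part of the estrogen receptor. Cells received SetD8-specific or non-targeting siRNA by nucleofection at 0 h and 24 h, and both groups were given β-estradiol, which activates the fusion protein, for 24 h before RNA was taken at 48 h. RNA was hybridised to 1-colour Agilent arrays. All arrays came from this single line, and the labels name no separate cultures within a group, so p-values cover no more than array-to-array spread, possibly technical.

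The p53 protein is a transcription factor that induces genes of cell cycle arrest, DNA repair and apoptosis. It is held at a low level by the ubiquitin ligase Mdm2, whose gene p53 itself induces, and by the Mdm2-related protein Mdm4, which binds and masks the p53 activation domain. SetD8, which places the single methyl group on lysine 20 of histone H4, also monomethylates a lysine near the C-terminus of p53, as described with the human proteins. Since p53 is controlled largely through the stability and modification of the protein, transcript levels cover only a part of this control.

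The probe for the p53 transcript, the dimmer probe for Mdm4 and the bright probe that the array names Trp63 are shown because they carry the values below. The lower-case letters are the deposited 60-base probe sequences, written 5′ to 3′, and the capitals mark a run of 6 CAG units.
Trp53 probe: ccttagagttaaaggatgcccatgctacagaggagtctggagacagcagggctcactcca
Mdm4 probe 2: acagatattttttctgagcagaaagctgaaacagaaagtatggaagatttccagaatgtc
Trp63 probe: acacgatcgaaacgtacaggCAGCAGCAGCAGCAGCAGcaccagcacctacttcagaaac
They lie at chr11:69404204-69404263 (plus strand), chr1:134888407-134888466 (minus strand) and chr16:25871159-25871218 (plus strand) of mm9.

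The promoters of 4 members held a match to the half-site of the p53 response element, shown because p53 is known to act through such sites. Windows ran 250 bases before to 50 bases after the gene start in RefSeq, build GRCm38.p6, and each line gives 30 bases on the gene's strand with the 10-base half-site in capitals.
Mdm2: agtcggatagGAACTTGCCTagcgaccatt
Trp53: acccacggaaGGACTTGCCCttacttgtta
Ppm1d: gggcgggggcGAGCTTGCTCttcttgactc
Rchy1: cactatgacaGAGCTTGTCTcctcaaggtg
These stretches are at chr10:117710925-117710954 (minus strand, half-site 186 bases before the start), chr11:69580274-69580303 (plus strand, 75 bases before), chr11:85311112-85311141 (plus strand, 132 bases before) and chr5:91962627-91962656 (minus strand, 90 bases before). The half-site, which is palindromic so that both strands were covered, was present in 4 of 13 windows of 9 members and in 8.36% of all 32851 windows. Trp63 had no window in the table. A match describes these letters and is not evidence of binding in these cells.

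SetD8 depletion was checked first. On the brighter Setd8 probe (current symbol Kmt5a, chromosome 5, 124911883 to 124911942, mm9) the log2 signal after normexp background correction and quantile normalization was 9.58, 9.26 and 9.24 on SetD8 arrays 1, 2 and 3, against 11.49, 11.57 and 11.23 on control arrays 1, 2 and 3. Every SetD8 array was below every control array, a difference of −2.07 ± 0.16 (SE), 4.2-fold lower, with a limma adjusted p of 0.0172. On the dimmer probe the difference was −1.13 ± 0.24 with an adjusted p of 0.146. The brighter probe's difference was −2.07 within slide 1 and −1.99 within slide 3, and its adjusted p was 0.0722 with slide as a block and 0.931 after scaling to the 75th percentile.

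The control arrays were less alike than the SetD8 arrays. The share of spots well above background was 60.3% to 68.6% on SetD8 arrays and 40.2% to 82.5% on control arrays, with control array 2 lowest and control array 3 highest, and no spot was saturated (0). SetD8 arrays 1 and 2 shared slide 1 with control array 1, SetD8 array 3 shared slide 3 with control array 3, and control array 2 was by itself on slide 2, with another scan day. All 10 erythroid markers were well above background on every array, and limma called 0 higher and 0 lower, with 3 at an unadjusted p under 0.05. Of all 14425 genes, limma called 0.499% higher and 0.0347% lower after normexp and quantile normalization, and 14.2% had an unadjusted p under 0.05. The 3 markers included the band 3 gene Slc4a1, at −1.19 (adjusted p 0.314). For Slc4a1 every SetD8 array lay below every control array, as for 8.19% of all probes. The other markers were the β-globin genes Hbb-b1 at 1.2 (adjusted p 0.454) and Hbb-b2 at 0.49 (adjusted p 0.433). Of 26 markers of other cell types (lymphoid, stromal and endothelial, mast cell, megakaryocyte, granulocyte and macrophage), 16 were measured, and the defining markers Mpo, Lyz2, Ly6g, Cpa3, Mcpt4, Fcer1a, Ppbp, Col1a1 and Cdh5 were among those that were not. Limma called 0 of the 16 higher and 0 lower, which beside those small shares does not show that markers were unchanged. Limma's unadjusted p was under 0.05 for Cd4, at 1.0 (adjusted p 0.338), and for Csf1r, at 0.97 (adjusted p 0.393). The probes of these genes did not agree, with differences down to −0.03 for Cd4 and −0.05 for Csf1r.

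Of the 20 member probes 15 were tested, at least 1 for each of the 10 genes, and 13 of them were well above background on all 6 arrays. Testing required that every array of either group showed the probe well above background, so the 15 are not all members. Limma with Benjamini-Hochberg adjustment over 30971 probes called 0 member probes higher and 0 lower at a threshold of 0.05, after normexp and quantile normalization as well as at the 75th percentile scaling. Over all probes it called 0.304% higher and 0.0194% lower in the first setting and 0% in either direction in the second. The unadjusted p was under 0.05 for 3 member probes (20%) in the first setting, against 10.3% of all probes, and for 0 in the second, against 2.5%. Differences ran from −0.47 to 0.92 (log2) with a median of −0.04, where all tested probes had a median of 0.01, and 7 of the 15 were positive, against 52.4% of all probes. The groups' arrays did not overlap for 2 member probes that were higher, Mdm2 and a Mdm4 probe, and for 1 that was lower, a Usp7 probe, against 9.48% and 8.19% of all probes. At the 75th percentile scaling, 1 member probe did not overlap, the other Mdm4 probe, which was higher. Of all probes 4.54% were higher and 3.02% lower without overlap there, 7.56% in all.

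**Figure D1:**
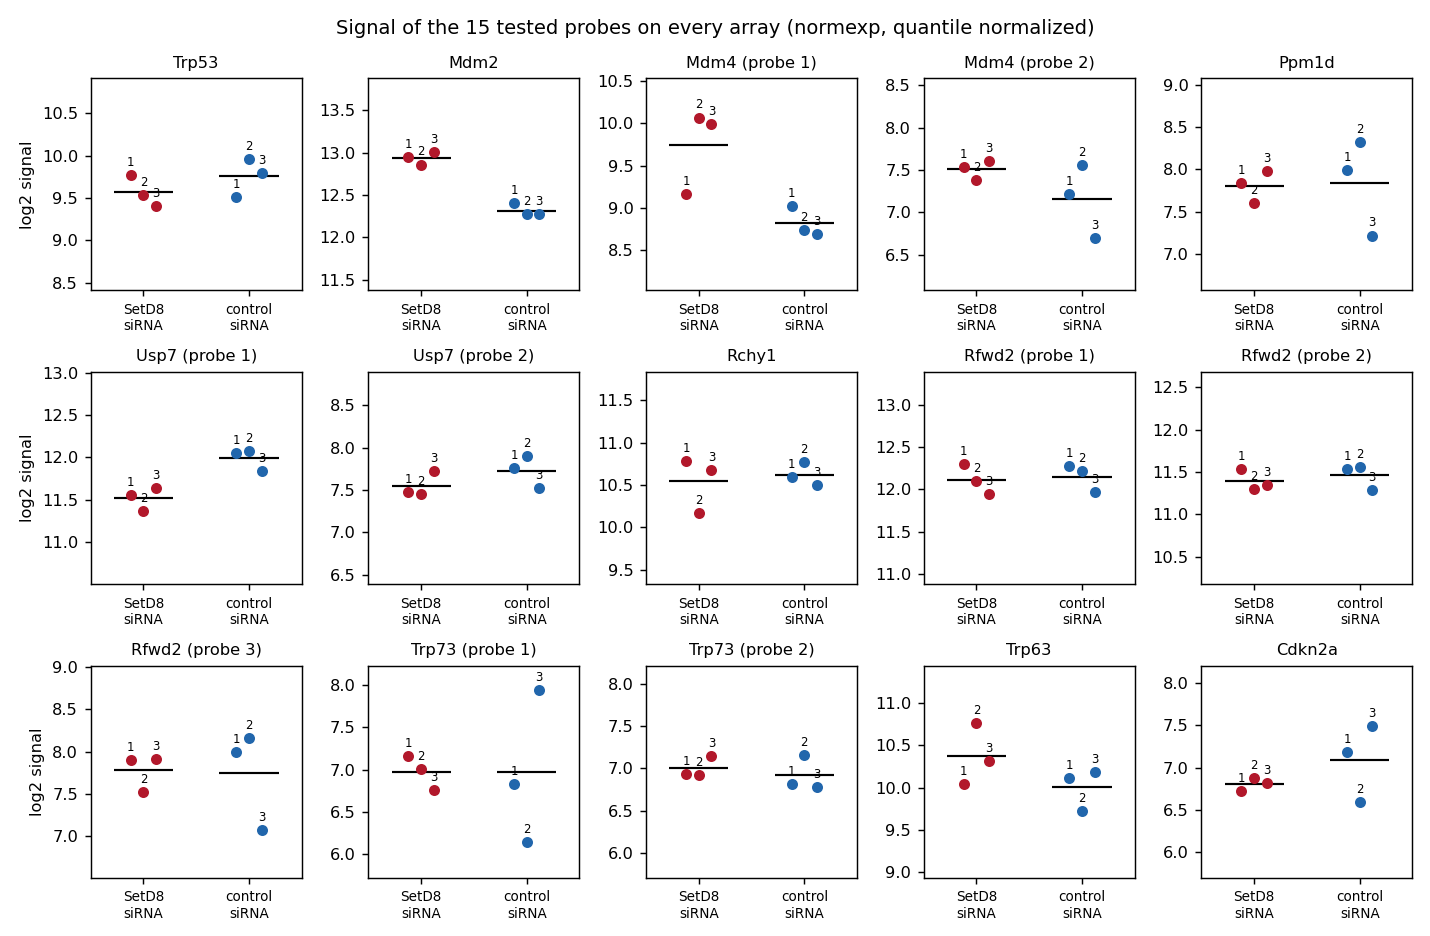
The 15 tested probes are drawn with 1 point per array, SetD8 siRNA in red on the left and control siRNA in blue on the right, as log2 signal after normexp and quantile normalization, with black bars at the group means and the array numbers above the points. The vertical axes differ in position and span the same range of log2 units. Mdm2 shows 3 SetD8 arrays between 12.86 and 13.01 and 3 control arrays between 12.27 and 12.40.

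The p53 transcript itself did not pass the test. Trp53 had a log2 signal of 9.77, 9.53 and 9.40 on SetD8 arrays 1, 2 and 3, against 9.51, 9.96 and 9.80 on control arrays 1, 2 and 3. The groups overlapped, since SetD8 array 1 lay above control array 1. The difference was −0.19 ± 0.17 (SE), with a 95% interval of −0.60 to 0.22 and an adjusted p of 0.816, and it was 0.14 within slide 1 and −0.41 within slide 3. Leaving out 1 array gave −0.32 (without control array 1) to −0.09 (without control array 2). At the 75th percentile scaling it was −0.33 with an adjusted p of 0.931. In these bulk samples, fewer cells of a type and less RNA per cell cannot be told apart.

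Mdm2, the ubiquitin ligase that marks p53 for degradation and is itself a p53 target, had the smallest unadjusted p of the tested member probes. Its probe (chromosome 10, 117126010 to 117126069, minus strand, mm9) had a log2 signal of 12.95, 12.86 and 13.01 on SetD8 arrays 1, 2 and 3 and of 12.40, 12.27 and 12.27 on control arrays 1, 2 and 3. All SetD8 arrays were above all control arrays, and the spread within each group was small, 0.07 (SD, n = 3) in each. The difference of 0.63 ± 0.12 (SE), 1.54-fold, had a 95% interval of 0.34 to 0.92, an unadjusted p of 0.0015 and an adjusted p of 0.118, so Mdm2 was not called. The exact two-sided permutation p was 0.1, the smallest that 3 against 3 arrays allow. The difference was 0.51 within slide 1 and 0.74 within slide 3.

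The size of the Mdm2 difference held its sign over the settings tried, but its side of the threshold did not. Limma called it with trend and robust moderation (0.63, adjusted p 0.00913) and with array weights (0.55, adjusted p 0.0146). Over all 17 alternative settings the difference ran from 0.40 to 0.67 and the adjusted p from 0.00913 to 0.984. At the 75th percentile scaling the values were 5.47, 5.39 and 5.63 on SetD8 arrays and 5.24, 5.69 and 4.18 on control arrays. There the groups overlapped through control array 2, and the difference of 0.46 had a 95% interval of −0.63 to 1.56 and an adjusted p of 0.931. The Mdm2 probe was also the only member probe of 20 to hold the letters AATAAA, the polyadenylation signal, read on the probe's own strand, as did 10.1% of all probes.

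Mdm4, the Mdm2 relative that masks the p53 activation domain, had 2 tested probes that were both higher on average and were not called. Probe 1 (chromosome 1, 134886426 to 134886485, minus strand, mm9) had a log2 signal of 9.17, 10.07 and 9.99 on SetD8 arrays 1, 2 and 3, against 9.03, 8.74 and 8.69 on control arrays 1, 2 and 3. The groups did not overlap, although SetD8 array 1 lay close to control array 1. The difference was 0.92 ± 0.26 (SE), 1.89-fold, with a 95% interval of 0.30 to 1.55, an unadjusted p of 0.0103 and an adjusted p of 0.26. It was 0.59 within slide 1 and 1.30 within slide 3, and ran from 0.70 to 1.21 over 17 alternative settings, in none of which it passed (lowest adjusted p 0.0765).

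Mdm4 probe 2, whose sequence stands above, had a log2 signal of 7.53, 7.38 and 7.61 on SetD8 arrays and 7.21, 7.56 and 6.69 on control arrays. The groups overlapped through control array 2, and the difference of 0.35 ± 0.23 (SE) had a 95% interval of −0.20 to 0.90 and an adjusted p of 0.719. Scaled to the 75th percentile, the same probe had −0.63, −0.90 and −0.62 on SetD8 arrays and −1.35, −1.02 and −1.58 on control arrays, without overlap. Without control array 3 the difference was 0.12 and without control array 2 it was 0.55. The change on probe 1 exceeded that on probe 2 by 0.57, with an exact permutation p of 0.3, in a test that cannot go below 0.1 with 3 against 3 arrays.

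**Figure D2:**
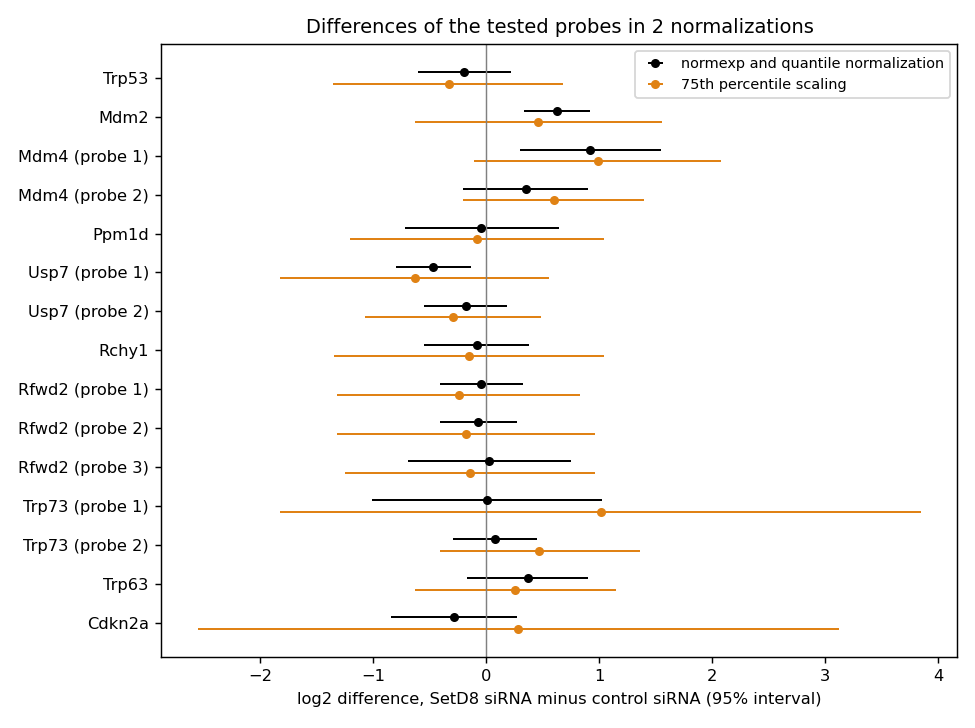
For each tested probe the point gives the log2 difference, SetD8 siRNA minus control siRNA, and the line its 95% interval from limma, in black after normexp and quantile normalization and in orange after 75th percentile scaling. In black the intervals of Mdm2 (0.34 to 0.92), Mdm4 probe 1 (0.30 to 1.55) and Usp7 probe 1 (−0.80 to −0.13) lie to one side of 0. In orange every interval includes 0.

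Usp7, a deubiquitinase that acts on Mdm2, Mdm4 and p53, was the member whose brighter probe lay lowest relative to control. Probe 1 (chromosome 16, 8689715 to 8689774, minus strand, mm9) had a log2 signal of 11.56, 11.37 and 11.64 on SetD8 arrays 1, 2 and 3, against 12.05, 12.08 and 11.84 on control arrays 1, 2 and 3. Every SetD8 array was below every control array. The difference of −0.47 ± 0.14 (SE), 1.38-fold lower, had a 95% interval of −0.80 to −0.13 and an adjusted p of 0.289, and was −0.58 within slide 1 and −0.20 within slide 3. Scaled to the 75th percentile it was −0.63, with −0.89 within slide 1 but 0.51 within slide 3, so the sign on slide 3 turned with the scaling. With array weights the difference was −0.52 and passed (adjusted p 0.0232).

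Usp7 probe 2 (8688933 to 8688992) had 7.48, 7.45 and 7.73 on SetD8 arrays and 7.76, 7.90 and 7.53 on control arrays. The groups overlapped, and the difference was −0.18 ± 0.16 (SE) with an adjusted p of 0.81. The difference on probe 1 was lower than that on probe 2 by −0.29, with an exact permutation p of 0.1, the smallest possible here, and 0.2 after adjustment over the 2 genes compared in this way.

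Rchy1 and Rfwd2 encode ubiquitin ligases that target p53, and both are described as p53-induced genes. Rchy1 (chromosome 5, 92378571 to 92378630, minus strand, mm9) had a log2 signal of 10.78, 10.17 and 10.67 on SetD8 arrays and 10.59, 10.77 and 10.50 on control arrays. SetD8 array 2 was the lowest of the 6 and the rest overlapped, and the difference was −0.08 ± 0.19 (SE), with a 95% interval of −0.55 to 0.38 and an adjusted p of 0.94. Rfwd2 was read by 3 probes on chromosome 1, plus strand, mm9. Probe 1 (161275084 to 161275143) had 12.30, 12.10 and 11.94 on SetD8 arrays and 12.27, 12.21 and 11.97 on control arrays, a difference of −0.04 ± 0.16 (SE) with an interval of −0.41 to 0.33. Probe 2 (161275156 to 161275215) gave −0.07 ± 0.14 and probe 3 (161277634 to 161277693) gave 0.03 ± 0.30, and the lowest adjusted p of the 3 probes was 0.934. On all 3 the groups overlapped.

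Ppm1d, a phosphatase that removes activating phosphates from p53 and from the kinases upstream of it, and also a p53 target, had a log2 signal of 7.84, 7.60 and 7.98 on SetD8 arrays 1, 2 and 3, against 7.99, 8.32 and 7.22 on control arrays 1, 2 and 3. Its probe lies on chromosome 11, 85160442 to 85160501, plus strand, mm9. The control arrays spanned more than the SetD8 arrays and included them. The difference was −0.04 ± 0.29 (SE), with a 95% interval of −0.72 to 0.65 and an adjusted p of 0.984, and it was −0.27 within slide 1 and 0.76 within slide 3.

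Cdkn2a encodes p16INK4a and, in another reading frame, p19ARF, which binds Mdm2 and frees p53. Its brighter probe (chromosome 4, 88920405 to 88920464, minus strand, mm9) was well above background on 3 SetD8 arrays and 2 control arrays, with a log2 signal of 6.73, 6.88 and 6.82 on SetD8 arrays and 7.19, 6.60 and 7.49 on control arrays. Control array 2, where the probe was not well above background, was lowest and the other control arrays were highest. The difference was −0.28 ± 0.23 (SE) with an adjusted p of 0.796, whereas the 75th percentile scaling gave 0.28. It was −0.53 without control array 2 and −0.09 without control array 3. The other Cdkn2a probe (88920543 to 88920602) was not well above background on any array. The array assigns both probes to the same Cdkn2a transcript. Which of the 2 proteins it encodes, and whether the probes also read the other protein's transcript, was not looked up.

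Trp73 and Trp63 encode relatives of p53 that bind similar sites. Trp73 was read by 3 probes on chromosome 4, minus strand, mm9. Probe 2 (153433043 to 153433102), well above background on all 6 arrays, had a log2 signal of 6.93, 6.92 and 7.15 on SetD8 arrays and 6.82, 7.16 and 6.78 on control arrays, a difference of 0.08 ± 0.16 (SE) with an adjusted p of 0.924. The groups overlapped. Probe 1 (153433098 to 153433157), which shares bases with probe 2, had 7.16, 7.01 and 6.76 on SetD8 arrays and 6.83, 6.14 and 7.94 on control arrays, and was not well above background on 1 control array. Its difference was 0.01 ± 0.43 (SE), with an interval of −1.01 to 1.03. At the 75th percentile scaling the difference of probe 1 was 1.02, with an interval of −1.82 to 3.85. There control array 2 was at −5.06, against −1.93 on control array 1 and 0.04 on control array 3. Probe 2 differed by 0.47 at that scaling, with an interval of −0.41 to 1.36. The groups overlapped on both probes there, so the size of the Trp73 difference depended on the scaling. Probe 3 was well above background on 1 control array and on 0 SetD8 arrays and was not tested.

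Of 4 Trp63 probes only the one printed above was well above background, on all 6 arrays. It had a log2 signal of 10.04, 10.76 and 10.31 on SetD8 arrays and 10.11, 9.72 and 10.18 on control arrays. The groups overlapped through SetD8 array 1, and the difference was 0.37 ± 0.22 (SE), with a 95% interval of −0.17 to 0.90 and an adjusted p of 0.693. It was 0.17 without SetD8 array 2 and 0.23 without control array 2. Its processed signal was 1100, 1020 and 1120 on SetD8 arrays and 1060, 977 and 1020 on control arrays, whereas the other 3 Trp63 probes had 2.71 to 17.3 over all arrays. The array assigns each of those 3 probes to a transcript other than that of the bright probe. At least 4 CAG units in a row occurred in 13 of 55681 probes (0.0233%). Of these, 10 (76.9%), the Trp63 probe itself included, were well above background on all arrays, against 37.8% of all probes. Whether the Trp63 probe reads Trp63 was not tested, and its value is uncertain.

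**Figure D3:**
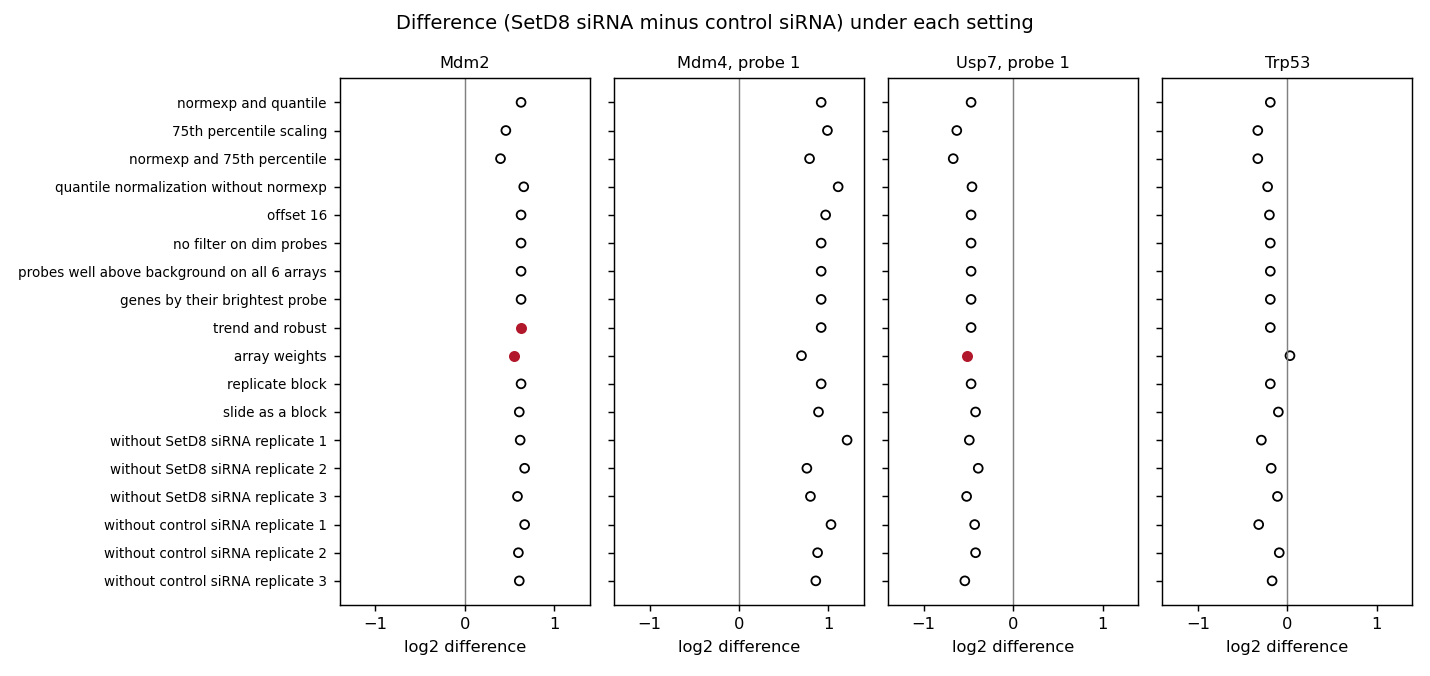
Each panel gives the log2 difference, SetD8 siRNA minus control siRNA, of 1 probe under the setting used for description and under each alternative, with red points where limma's adjusted p was below 0.05. Mdm2 stays between 0.40 and 0.67, Mdm4 probe 1 between 0.70 and 1.21 and Usp7 probe 1 between −0.67 and −0.39, while Trp53 runs from −0.33 to 0.03.

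The genes whose profiles over the 6 arrays lay nearest to that of Mdm2 were Napepld, Pmm1, Sdhaf4, Hspb11 and Rb1. The root mean square distance of the centred log2 profiles was 0.0282 for Napepld and 0.0455 for Rb1, against a median of 0.384 over 14415 genes. Their differences ran from 0.59 (Rb1) to 0.69 (Hspb11), and none passed (adjusted p of 0.09 for Hspb11 and 0.145 for Rb1). Nearest to Trp53 were Ubqln4, Plekhb2, Dtwd2, Epb41l4b and C330024D21Rik, at distances of 0.0572 for Ubqln4 to 0.0869 for C330024D21Rik, against a median of 0.3. The array groups are part of these profiles, so genes with a like difference come near by construction.

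The wider set of p53 regulators was also read, with each gene by its brightest tested probe. In 5 lists, of ligases and deubiquitinases, nucleolar and ribosomal genes tied to Mdm2 inhibition, kinases and phosphatases, acetylation and methylation enzymes, and p53 binding cofactors, 122 of 130 genes were measured. Limma called 0 of them higher and 0 lower after normexp and quantile normalization, where 0.499% of all 14425 genes were called higher and 0.0347% lower. An unadjusted p under 0.05 was found for 21 of the 122 (17.2%), near the 14.2% of all genes. There were 57 positive and 65 negative differences, where 55.1% of all genes were positive. The median difference was −0.03, against 0.03 over all genes.

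Acetylation and methylation enzymes had the lowest median, −0.20 over 29 measured genes with 11 positive and 18 negative, but the list held no call. Ehmt2, a histone and p53 lysine methyltransferase also known as G9a, differed by 0.91 ± 0.14 (SE, adjusted p 0.0763), and Ep300, the acetyltransferase p300, by −0.81 ± 0.17 (adjusted p 0.145). Prmt1, an arginine methyltransferase, differed by −0.54 (adjusted p 0.191) and Ing1 by −0.42 (adjusted p 0.327). Among 20 measured cofactors the median was 0.01. Hspa9, the mitochondrial chaperone mortalin that binds p53, differed by −0.76 ± 0.14 (adjusted p 0.0983) and Ppp1r13l, which encodes the p53 inhibitor iASPP, by 1.14 ± 0.23 (adjusted p 0.13). Zfp385a differed by 0.60 (adjusted p 0.144) and Hnrnpk by −0.44 (adjusted p 0.555).

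The list of 17 nucleolar and ribosomal genes, several of which encode ribosomal proteins that bind Mdm2 when ribosome assembly is disturbed, had a median of −0.01, with 8 positive and 9 negative. Rps27l differed by 0.79 ± 0.18 (adjusted p 0.164), Mybbp1a by −0.60 (adjusted p 0.237), Grwd1 by −0.56 (adjusted p 0.327) and Npm1, nucleophosmin, by −0.30 (adjusted p 0.523). Of 26 measured kinases and phosphatases 16 were positive and 10 negative, with a median of 0.03. Mapk9 and Ppp2r5c each differed by 0.52 (adjusted p 0.186 for Mapk9 and 0.265 for Ppp2r5c), but their other tested probes gave 0.02 for Mapk9 and −0.19 for Ppp2r5c. The mitotic kinases differed by −0.42 for Aurka (adjusted p 0.331) and by −0.38 for Plk1 (adjusted p 0.399). The 30 measured ligases and deubiquitinases had a median of −0.06. Usp10, a deubiquitinase of p53, differed by −0.63 (adjusted p 0.162), Usp2, which acts on Mdm2, by 0.53 (adjusted p 0.346), Mkrn1 by 0.31 (adjusted p 0.407, with 0 on its other probe) and Rffl by 0.39 (adjusted p 0.504).

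Direct targets of p53 were read beside its regulators, from a list written with earlier results of these data known, so their count is not independent evidence of a direction. Of 35 listed targets 27 were measured, and limma called 8 higher and 0 lower, against 0.499% of all genes higher. The median difference was 0.90 with 23 positive and 4 negative, where 55.1% of all genes were positive. Phlda3, an Akt inhibitor, rose 6.56-fold (adjusted p 0.02), Dcxr 6.1-fold (adjusted p 0.0105), and Trp53inp1, which promotes p53 phosphorylation, 5.06-fold (adjusted p 0.0172). Ccng1, cyclin G1, rose 2.97-fold (adjusted p 0.0301), Cdkn1a, the cyclin-dependent kinase inhibitor p21, 2.63-fold (adjusted p 0.0258), and the nuclease gene Aen 2.27-fold (adjusted p 0.0242). The apoptosis gene Bbc3 (Puma) rose 2.26-fold (adjusted p 0.042) and the apoptosis gene Bax 2.18-fold (adjusted p 0.0463). The 3 Cdkn1a probes did not agree, with differences down to −0.02. At the 75th percentile scaling the median was 0.97 and 0 targets were called. The count was also 0 with slide as a block, with the replicate number as a block, with quantile normalization without normexp, and without control array 1 or any single SetD8 array.

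Among the members described above as p53 targets, the difference was 0.63 for Mdm2, −0.08 for Rchy1, −0.04 for Ppm1d and −0.04 for Rfwd2 probe 1. None of these was called by limma after normexp and quantile normalization (adjusted p of 0.118 for Mdm2) or at the 75th percentile scaling (0.931 for Mdm2). Of the other measured cell types, the summed signal of 4 megakaryocyte markers was 10300 to 24100 on SetD8 arrays and 6800 to 16900 on control arrays. For 3 granulocyte and macrophage markers it was 3890 to 5540 on SetD8 arrays and 3760 to 3780 on control arrays, for 4 lymphoid markers 2510 to 3810 on SetD8 arrays and 1240 to 3070 on control arrays, and for 3 stromal and endothelial markers 443 to 834 on SetD8 arrays and 370 to 420 on control arrays. The sums of 2 mast cell markers (248 to 333 on SetD8 arrays and 247 to 316 on control arrays) overlapped. The granulocyte and macrophage sums and the stromal and endothelial sums lay higher on every SetD8 array than on any control array. The nearest arrays were close, 3890 against 3780 and 443 against 420. Of single probes, 9.48% were higher without overlap after normexp and quantile normalization. In the first sum Itgam, its brightest gene, overlapped and differed by 0.04, Elane by 0.26 and Csf1r by 0.97. In the second sum the difference was 0.88 for Col1a2, 0.58 for Pdgfrb and −0.08 for Pecam1. The part of such cells in the differences above was not tested.

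**Figure D4:**
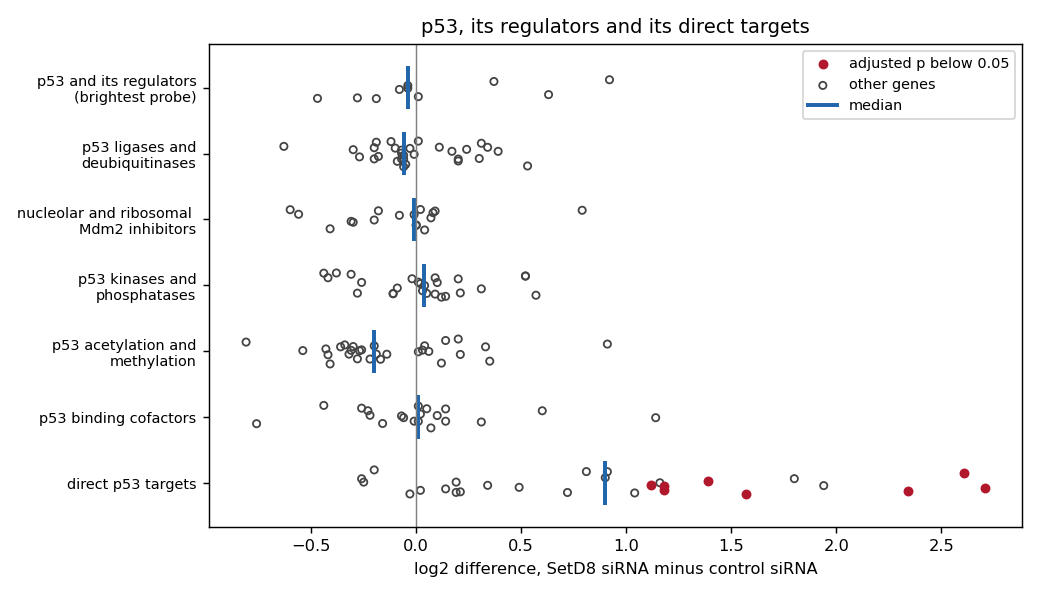
Each circle is 1 gene by its brightest tested probe, placed by its log2 difference, SetD8 siRNA minus control siRNA, after normexp and quantile normalization, with blue bars at the list medians and filled red circles where limma's adjusted p was below 0.05. The medians of the members and the 5 regulator lists lie between −0.20 and 0.03, and that of the direct targets is 0.90. The target list was written with earlier results of these data known, and 0 targets were called at the 75th percentile scaling.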

How the data were processed

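Linear spot intensity was taken from the scanner files that the authors deposited, 1 Cy3-labelled sample per array. Per the file headers, Agilent Feature Extraction 10.7.3.1 wrote them, with probes placed on mm9. The deposited series matrix also holds intensity and equals each array's processed signal within 0.006. The submitters' processing notes name limma; the authors' settings are not given in the sources used here. Control spots and 139 to 176 outlier spots per array were left out, and spots of a probe were averaged. In the setting chosen first, log2 processed signal minus each array's 75th percentile was tested. It called 0 probes, so members are described after normexp (offset 50, mean signal, median local background) and quantile normalization, which shrinks changes of dim probes. Probes that every array of either group showed well above background were tested, SetD8 siRNA minus control siRNA, with limma 3.58.1 (lmFit, eBayes, two-sided) in R 4.3.3. Python 3.11.15 and matplotlib 3.10.9 drew the figures. Groups came from the sample titles. Members, lists and settings were chosen with earlier results of these data known. The text names every member, from each list the genes past the threshold or else the 4 with the smallest p, and the 5 nearest profiles of Mdm2 and Trp53. A gene table of GRCm38.p6, used for names only, named 26762 probes by accession and 4458 by symbol or synonym. Exon and UTR positions of probes were not looked up here. The number of arrays limits the precision.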

Additional observations from a re-analysis of the deposited data

How the results depend on the processing

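Calls depended on the processing. Of all probes, 94 were called higher and 6 lower after normexp and quantile normalization, against 0 and 0 at the 75th percentile scaling. Counts were 23 and 1 with normexp and the 75th percentile, 0 and 0 with quantile normalization alone, and 14 and 1 at offset 16. They were 116 and 11 without a filter and 291 and 76 among probes well above background on all arrays. With genes by their brightest probe they were 211 and 34, and with trend and robust moderation 521 and 279. Array weights gave 1283 and 1233, and slide as a block 0 and 0. Without 1 array, 0 to 101 were higher and 0 to 5 lower. There were 0 in both directions without control array 1 or any single SetD8 array. Starting from the 75th percentile scaling (0 and 0), counts were 112 and 10 on all-array probes, 4 higher with trend and robust moderation, 2644 and 2758 with array weights, 109 and 18 with slide as a block, and 0 to 97 and 0 to 6 without 1 array, the highest without control array 2.

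Member probes were called 0 times except with array weights (1 higher and 1 lower, or 2 and 1 from the 75th percentile scaling) and with trend and robust moderation (1 higher). List calls, 8 higher and 0 lower, became 0 higher at the 75th percentile and with quantile normalization alone or slide as a block. They were 2 higher with normexp and the 75th percentile or offset 16, and 9 higher without a filter. On all-array probes or by brightest probe they were 12 higher and 1 lower. Trend and robust moderation gave 15 higher and 3 lower, and array weights 23 and 6. Without 1 array, 0 to 8 were higher. Setd8 on its brighter probe missed the threshold at −2.24 (75th percentile), −2.10 (quantile alone) and −2.04 (slide block). Without 1 array it ran from −2.18 to −2.0. It also missed without control array 1 or any single SetD8 array (limma adjusted p 0.0977 to 0.171). Its dimmer probe passed at −1.13 (trend and robust) and −1.14 (array weights).

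Signs turned for Trp53 with array weights (0.03), Ppm1d with quantile alone (0.14) and slide as a block (0.17), Rchy1 with slide as a block (0), Rfwd2 probe 3 at the 75th percentile (−0.14), with normexp and the 75th percentile (−0.04) and with array weights (−0.19), Trp73 probe 1 with slide as a block (−0.35), and Cdkn2a at the 75th percentile (0.28) and with quantile alone (0.14). Without 1 array, Ppm1d ran from −0.35 to 0.20, Rchy1 from −0.20 to 0.10, Rfwd2 probe 1 from −0.13 to 0.05, Rfwd2 probe 3 from −0.30 to 0.24 and Trp73 probe 1 from −0.40 to 0.50. Without a change of sign, Usp7 probe 2 ran from −0.28 to −0.09, Trp73 probe 2 from 0.01 to 0.20, Mdm4 probe 2 from 0.12 to 0.55, Trp63 from 0.17 to 0.53 and Cdkn2a from −0.53 to −0.09. The cause of these changes was not tested.

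Deviations from the group means correlated at 0.152, −0.279 and −0.288 for same-numbered arrays, and at −0.183 to 0.358 for unlike-numbered arrays. With 3 arrays per group, such correlations cannot show whether the numbers pair the arrays. Arrays numbered 1 shared slide 1, and arrays numbered 3 shared slide 3. With the replicate number as a block, limma called 0 probes higher and 0 lower, Mdm2 differed by 0.63 (adjusted p 0.453) and Setd8 by −2.07 (adjusted p 0.291), and 0 listed genes were called.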
